A study of Mus musculus with 18 samples.

Results

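Mouse liver RNA levels of 10 hepatocyte junction genes were described: the gap junction genes Gjb1 and Gjb2, the claudins Cldn1, Cldn2, Cldn3, Cldn12 and Cldn14, the tight junction genes Ocln and Tjp1, and Cdh1 of the adherens junction. They were taken by gene symbol from a table of 52636 gene IDs. All 10 were found and all 10 were among the 13958 genes with enough reads to test. Gap junctions are channels built of connexins that let ions and small molecules pass between neighbouring cells. Tight junctions are strands of claudins and occludin that close the gap between hepatocytes around the bile canaliculus and keep bile apart from blood, and scaffold proteins anchor them to the cytoskeleton. In bulk liver several of these genes, such as Cdh1, Cldn3 and Tjp1, are also made by bile duct cells.

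The study asked what an inducible loss of HNF4α, alone or with the clock factor BMAL1 (gene Arntl), does to gene expression in liver. The 18 libraries form 6 groups of 3 livers. H-KO and H-WT mice carried the alleles Hnf4atm1.1Gonz (129X1/SvJ) and Albtm1(cre/ERT2)Mtz, given with the backgrounds 129S2/SvPas and C57BL/6, and were 10 weeks old. BH-KO and BH-WT mice carried Arntltm1Weit (129S4/SvJae) in addition and were also 10 weeks old. BH-HF-KO and BH-HF-WT mice had the same alleles as BH mice, ate a high-fat diet for 35 weeks from 10 weeks on, and were 45 weeks old. In all groups tamoxifen (10 mg/mL, in corn oil) was injected on 5 days at 8 weeks, and livers were taken at ZT8, a time 8 h into the light phase. The recombinase is a tamoxifen-activated Cre placed at the albumin gene, which is active in hepatocytes, so that other liver cells are not its target. KO and WT mice of a line share 1 strain label, and what sets the WT mice apart is not given. Diet and age differ together between BH-HF and BH mice and cannot be told apart.

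Library totals ran between 6846471 and 9816124 counts, and levels are given as CPM, counts scaled to the TMM-adjusted total of the tested genes. Groups are called by their labels throughout, so BH-KO livers are the libraries labelled BH-KO. By whole-gene counts neither targeted gene was lower in KO livers by the test, and such counts pool all exons, so the loss of 1 exon is poorly seen. Hnf4a stood at 556 to 658 CPM in H-KO livers and 581 to 889 CPM in H-WT livers, with a log2 fold change of −0.35 ± 0.21 (SE) that did not pass the test (edgeR adjusted p = 0.208). In BH-KO livers it stood at 867, 500 and 495 CPM, against 772 to 890 CPM in BH-WT livers, so that replicate 1 was within the BH-WT range and replicates 2 and 3 were below it (log2 fold change over all 3 livers −0.40 ± 0.21, edgeR adjusted p = 0.164). Arntl stood at 17.4, 22.3 and 24.1 CPM in BH-KO livers and 0.421 to 0.799 CPM in BH-WT livers, which is the opposite of a lower transcript level (log2 fold change 5.00 ± 0.43, edgeR adjusted p = 2.13e-06). In the libraries labelled BH-HF-KO it stood at 0.885 to 2.54 CPM, against 1.03 to 2.004 CPM in BH-HF-WT libraries. Hnf4a stood there at 844, 978 and 820 CPM in BH-HF-KO libraries, against 768, 783 and 840 CPM in BH-HF-WT libraries. One library stood apart from its group: the library labelled BH-KO replicate 1 had 62628 CPM of 8 summed hepatocyte markers, against 34571 and 26279 CPM in BH-KO replicates 2 and 3, and 9.45% mitochondrial counts, against 3.70% and 4.17%. H-WT replicate 3 had 1084 CPM of Xist, which is transcribed from an inactive X, and every other library had at most 3.90 CPM. What set the BH-KO library apart was not tested. Results that rest on these libraries are given with and without them.

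Upstream sequences are shown for 4 genes: Cldn2 and Gjb2, which had the widest drops in H-KO livers, Cldn1, whose KO effect differed most between the lines, and Tjp1, which moved the other way. Each is the 250 bases before a RefSeq transcription start (GRCm38.p6), written on the gene's own strand, and capitals mark the motif matches found by a letter search.
Cldn2: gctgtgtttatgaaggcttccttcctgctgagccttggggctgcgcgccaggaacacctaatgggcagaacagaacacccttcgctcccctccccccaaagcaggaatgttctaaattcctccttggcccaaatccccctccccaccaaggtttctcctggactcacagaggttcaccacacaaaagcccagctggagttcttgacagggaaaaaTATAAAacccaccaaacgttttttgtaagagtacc
Gjb2: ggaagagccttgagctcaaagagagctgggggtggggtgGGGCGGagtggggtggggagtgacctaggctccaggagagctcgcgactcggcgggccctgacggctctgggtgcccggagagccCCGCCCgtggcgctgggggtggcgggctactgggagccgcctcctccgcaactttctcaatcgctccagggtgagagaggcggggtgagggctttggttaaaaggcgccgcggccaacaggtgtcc
Cldn1: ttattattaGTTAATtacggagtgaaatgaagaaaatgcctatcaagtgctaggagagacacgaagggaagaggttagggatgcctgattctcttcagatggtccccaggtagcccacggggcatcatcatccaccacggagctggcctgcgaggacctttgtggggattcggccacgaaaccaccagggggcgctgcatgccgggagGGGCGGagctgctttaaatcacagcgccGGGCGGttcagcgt
Tjp1: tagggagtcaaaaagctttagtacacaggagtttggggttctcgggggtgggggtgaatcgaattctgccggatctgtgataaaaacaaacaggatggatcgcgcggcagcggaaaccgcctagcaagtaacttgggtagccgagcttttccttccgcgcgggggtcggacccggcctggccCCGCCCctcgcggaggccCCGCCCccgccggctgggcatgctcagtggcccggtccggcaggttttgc
The Cldn2 sequence lies at chrX:139800558-139800807 on the plus strand. Those of Gjb2, Cldn1 and Tjp1 lie on the minus strand at chr14:57104703-57104952, chr16:26371840-26372089 and chr7:65371245-65371494. The Tjp1 start used is inside the longer gene of the GENCODE annotation. RefSeq promoters were matched for 9 of the 10 genes, in 17 windows, and Cdh1 was not matched.

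The 4 sequences differ in base content. That of Cldn2 had 52.0% G and C and 4 CpG pairs and held TATAAA, the TATA box, 35 to 30 bases before the start, a motif found in 12.4% of the 32817 distinct promoter windows of the table. Those of Gjb2 and Tjp1 had 69.2% and 63.2% G and C with 18 and 22 CpG pairs, and each held 2 GC boxes (GGGCGG or its reverse complement, in 32.7% of all windows). The Cldn1 sequence, with 55.6% G and C, held 2 GC boxes and, 241 to 236 bases before the start, GTTAAT, part of the site bound by HNF1 factors (6.44% of all windows). Searched on both strands, none of the 17 windows held CAAAGTCCA, a motif of HNF4 factors (0.384% of all windows), 2 copies of AGGTCA 1 base apart, the DR1 repeat of nuclear receptors (0.0335%), or CACGTG, the E-box of clock factors (6.02%). No pair of these motifs overlapped in the windows shown. A match is a description of the letters, and the lack of one says only that these letters are not in the 250 bases searched.

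Per kilobase of merged exon and averaged over the 18 libraries, Gjb1 stood highest at 302 CPM per kb and Gjb2 next at 140 CPM per kb. The claudins followed, with Cldn3 at 34.9, Cldn2 at 23.5, Cldn12 at 18.9 and Cldn1 at 9.45 CPM per kb. Cdh1 stood at 9.16, Tjp1 at 7.86, Cldn14 at 4.41 and Ocln at 4.23 CPM per kb. The spread over libraries was wide for some and narrow for others: the highest library exceeded the lowest 74.7-fold for Cldn2, 27.2-fold for Cldn1 and 22.9-fold for Gjb2, but 2.33-fold for Gjb1 and 1.88-fold for Tjp1.

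**Figure D1:**
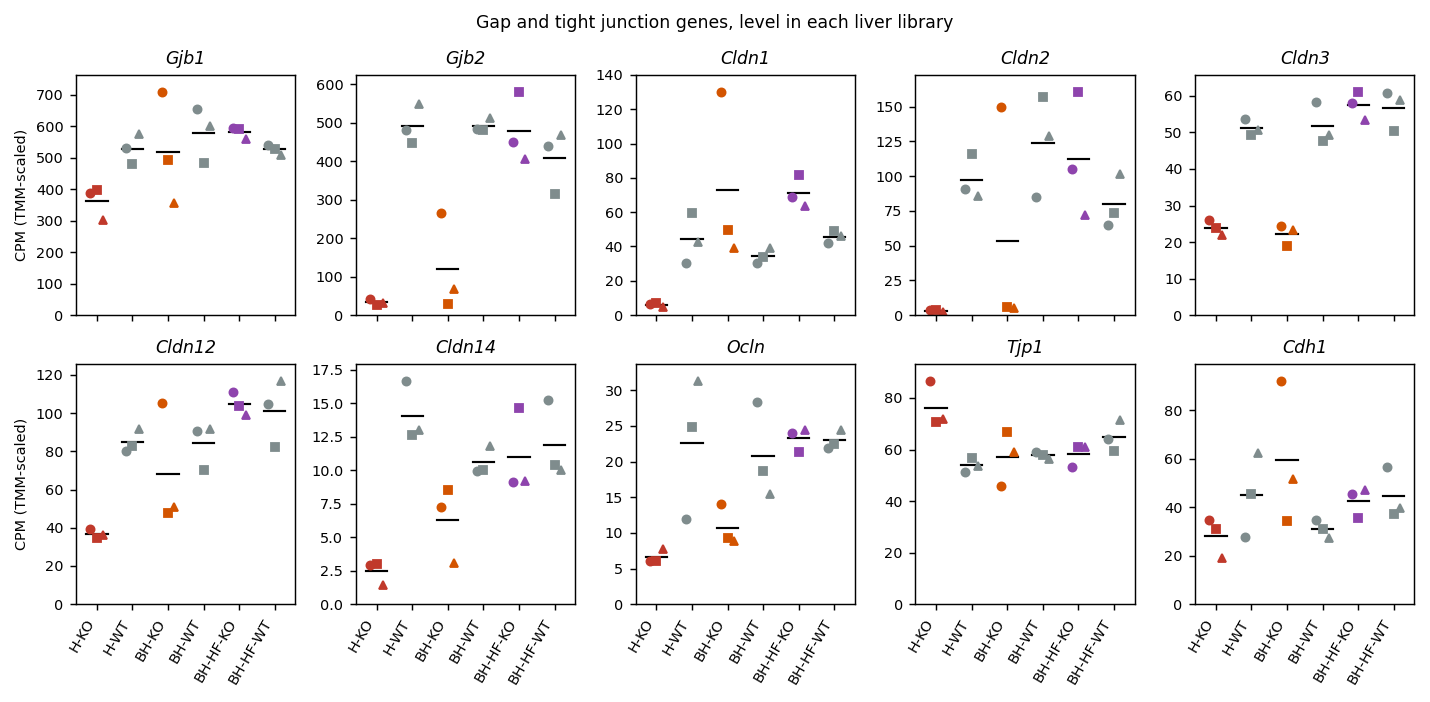
Level of each of the 10 genes in every library, in CPM on linear axes that start at 0, with KO groups left of their WT groups; each point is 1 liver, its shape the replicate number, and each bar a group mean. The 3 H-KO livers lie below the 3 H-WT livers for 8 genes and above them for Tjp1, and 1 BH-KO liver lies far above the other 2 for Cldn2.

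The first question was how these genes stood after the induced deletion in the H line. In H-KO livers 8 of the 10 genes fell and 1 rose at an adjusted p under 0.05 (edgeR quasi-likelihood test, Benjamini-Hochberg over 13958 genes), beside 34.9% of all genes tested, 15.8% higher and 19.1% lower. The median log2 fold change of the 10 genes was −1.49, beside a median of zero over all genes. Values of all H-KO livers lay below those of all H-WT livers for 8 genes and above them for 1, beside 51.9% of all genes without overlap in either direction, 25.9% below and 26.1% above. These are bulk samples, in which fewer cells of a type and less RNA per cell cannot be told apart. The summed level of 8 hepatocyte markers, none at 0, was 21197 to 23898 CPM in H-KO livers and 88159 to 97196 CPM in H-WT livers. By the test 4 of the 8 were lower, and their median log2 fold change was −0.64. Albumin, 1 of the 8, made up 1.35% to 1.68% of all counts in H-KO livers and 6.78% to 7.74% in H-WT livers. The summed level of 10 cholangiocyte markers was 136 to 202 CPM in H-KO livers and 50.1 to 74.8 CPM in H-WT livers, with 4 of 6 tested higher. The part of either shift in the results was not tested.

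The connexins fell to different depths. Gjb2 (chr14:57098600-57104702, minus strand, mm10), which encodes Cx26, the lesser connexin of hepatocytes, had 40.9, 25.3 and 32.6 CPM in H-KO livers, against 480, 446 and 548 CPM in H-WT livers. Every H-KO liver was more than an order of magnitude below every H-WT liver. The log2 fold change was −3.90 ± 0.58 (SE, 95% interval −5.17 to −2.63, edgeR adjusted p = 0.000245), or 14.9-fold lower. Gjb1 (chrX:101376378-101385629, plus strand), which encodes Cx32, the main connexin of hepatocytes, had 387, 397 and 303 CPM in H-KO livers, against 529, 480 and 575 CPM in H-WT livers. These groups also did not overlap, but the log2 fold change was only −0.54 ± 0.20 (edgeR adjusted p = 0.0467), and the call was lost when any 1 of the 6 libraries was left out (adjusted p 0.0536 to 0.171) and with upper-quartile scaling (adjusted p = 0.113).

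All 5 claudins fell. Cldn2 (chrX:139800828-139811386, plus strand), which forms channels for cations and water and in rodent liver is made mainly near the central vein, had 3.71, 3.57 and 2.14 CPM in H-KO livers (92 counts in all), against 90.7, 116 and 85.4 CPM in H-WT livers (2231 counts). Its log2 fold change of −4.95 ± 1.09 (95% interval −7.32 to −2.58, edgeR adjusted p = 0.00334) was the lowest of the 10 genes. Cldn1 (chr16:26356642-26371841, minus strand), a sealing claudin of epithelia, had 6.22, 6.81 and 4.78 CPM in H-KO livers, against 30.3, 59.5 and 42.4 CPM in H-WT livers. The H-WT livers varied among themselves, but the highest H-KO liver was still well under the lowest of them, and the log2 fold change was −2.89 ± 0.39 (edgeR adjusted p = 0.000127).

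Cldn14 (chr16:93919031-94008837, minus strand), a cation barrier claudin known best from the inner ear and kidney, had 2.91, 3.03 and 1.46 CPM in H-KO livers (72 counts in all), against 16.6, 12.6 and 13.03 CPM in H-WT livers (320 counts). The log2 fold change was −2.51 ± 0.35 (edgeR adjusted p = 0.000111). Cldn12 (chr5:5489537-5514958, minus strand), a claudin that lacks the PDZ-binding tail by which most others attach to scaffolds, had 39.3, 34.4 and 36.5 CPM in H-KO livers, against 80.2, 83.0 and 91.9 CPM in H-WT livers. Cldn3 (chr5:134986214-134987472, plus strand), another sealing claudin, had 26.1, 23.8 and 21.8 CPM in H-KO livers, against 53.7, 49.3 and 50.7 CPM in H-WT livers. Both were tight within each group and fell about alike, with log2 fold changes of −1.21 ± 0.23 for Cldn12 (edgeR adjusted p = 0.00107) and −1.10 ± 0.12 for Cldn3 (adjusted p = 1.72e-05). Cldn3 shares 40 exon bases with the antisense gene Wbscr25, with the strand setting of the counting not given in the sources used here.

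Among the partners of the claudins the directions parted. Ocln (chr13:100496507-100552718, minus strand), the occludin of the tight junction strand, had 6.12, 6.05 and 7.80 CPM in H-KO livers, against 11.97, 24.8 and 31.2 CPM in H-WT livers. It fell by 1.76 ± 0.30 on the log2 scale (edgeR adjusted p = 0.000441), with a WT spread wider than that of the claudins. Tjp1 (chr7:65296165-65527781, minus strand), the scaffold ZO-1 that links claudins and occludin to actin, had 86.4, 70.6 and 71.7 CPM in H-KO livers, against 51.3, 56.7 and 53.8 CPM in H-WT livers. It was the 1 gene of the 10 that rose (log2 fold change 0.50 ± 0.12, edgeR adjusted p = 0.00563), and all H-KO livers were above all H-WT livers. Cdh1 (chr8:106603351-106670246, plus strand), the E-cadherin of adherens junctions, had 34.9, 30.9 and 19.1 CPM in H-KO livers, against 27.7, 45.7 and 62.5 CPM in H-WT livers. Its groups overlapped and its log2 fold change of −0.68 ± 0.35 (95% interval −1.43 to 0.08) did not pass (edgeR adjusted p = 0.146). All of these calls in the H line except that of Gjb1 held under every one of the 13 alternative settings run.

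**Figure D2:**
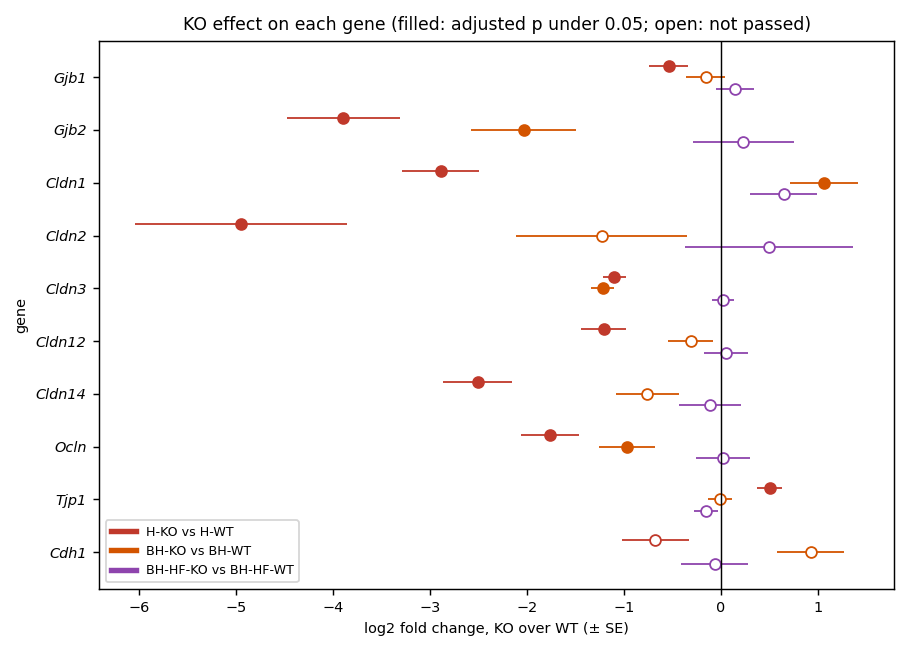
Log2 fold change of KO over WT (x axis) for each of the 10 genes in H, BH and BH-HF mice, with bars of ± 1 SE of the edgeR fit. Filled points passed an adjusted p under 0.05. Cldn2, Gjb2 and Cldn1 lie furthest below 0 in the H line. Cldn1 lies at −2.89 there and at 1.06 in the BH line, and no gene passed in BH-HF mice.

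In the BH line, which carries the Arntl allele as well, 3 of the 10 genes fell (Gjb2, Cldn3 and Ocln) and 1 rose (Cldn1), beside 28.6% of all genes tested, 14.3% in each direction. Groups did not overlap for 4 genes, all lower in BH-KO livers, beside 34.9% of all genes in either direction and 16.8% lower. BH-KO replicate 1 lay far from the other 2 BH-KO livers for most of the 10 genes, and without it 6 genes fell and none rose, beside 41% of all genes called in that fit. The count was 2 with BH-KO replicate 3 left out, beside 16.9% of all genes, and 2 with BH-WT replicate 1 left out, beside 22.1%. In these fits the members' count moved with the share called over the whole table. With BH-KO replicate 2 left out, 2 of the 10 genes rose and 2 fell. The share of all genes in that fit is not given here, so this count is not compared with it. The summed hepatocyte markers were 26279 to 62628 CPM in BH-KO livers and 87731 to 115258 CPM in BH-WT livers, with 1 of 8 higher and 1 lower by the test. Without BH-KO replicate 1, 1 of the 8 was higher and 4 were lower. Cholangiocyte markers summed to 134 to 379 CPM in BH-KO livers and 55.5 to 101 CPM in BH-WT livers. Of the 6 tested, 3 were higher by the test and 0 lower, while 3 log2 fold changes were positive and 3 negative (median −0.058). Without BH-KO replicate 1, 3 of the 6 were higher and 2 lower. Kupffer cell markers summed to 41.3 to 115 CPM in BH-KO livers and 146 to 940 CPM in BH-WT livers, with 6 of 8 lower. The Kupffer count was 7 without BH-KO replicate 1, 1 without replicate 2 and 3 without replicate 3. It was 6, 3 and 4 without BH-WT replicates 1, 2 and 3 in turn. The part of these markers in the values of the 10 genes was not tested.

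Cldn3 was the steadiest of these changes. It had 24.5, 18.9 and 23.3 CPM in BH-KO livers, against 58.4, 47.7 and 49.4 CPM in BH-WT livers, a log2 fold change of −1.22 ± 0.12 (edgeR adjusted p = 6.77e-06). BH-KO replicate 1 did not stand out for this gene, and the call held under all 13 alternatives. Ocln had 14.1, 9.22 and 8.90 CPM in BH-KO livers, against 28.3, 18.6 and 15.5 CPM in BH-WT livers. Its groups just failed to overlap, and its fall of 0.97 ± 0.29 on the log2 scale (edgeR adjusted p = 0.0213) was lost when replicate 2 or 3 of the BH-KO livers (adjusted p = 0.0874 and 0.0893) or replicate 1 of the BH-WT livers (adjusted p = 0.106) was left out.

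Gjb2 and Cldn2 split the BH-KO livers. Gjb2 had 265, 29.2 and 66.6 CPM in BH-KO livers, against 483, 480 and 512 CPM in BH-WT livers. All BH-KO livers were below all BH-WT livers, replicate 1 least so, and the log2 fold change was −2.04 ± 0.54 (edgeR adjusted p = 0.0130). Without replicate 1 it was −3.36 ± 0.32, and without replicate 3 the call was lost (−1.75 ± 0.59, edgeR adjusted p = 0.0582). Cldn2 had 149, 5.99 and 5.02 CPM in BH-KO livers, against 85.3, 157 and 129 CPM in BH-WT livers. Replicate 1 was within the BH-WT range and the other 2 were more than an order of magnitude below it. The log2 fold change of −1.23 ± 0.88 over all 3 livers did not pass (edgeR adjusted p = 0.311), and without replicate 1 it was −4.49 ± 0.41 (adjusted p = 1.67e-06).

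The same library decided the calls of further genes. Cldn12 had 105, 47.7 and 50.7 CPM in BH-KO livers, against 90.5, 70.2 and 91.8 CPM in BH-WT livers (log2 fold change −0.32 ± 0.23, and −0.77 ± 0.14 without replicate 1, edgeR adjusted p = 0.313 and 0.000498). Gjb1 had 708, 494 and 356 CPM in BH-KO livers, against 655, 484 and 600 CPM in BH-WT livers (log2 fold change −0.16 ± 0.20, and −0.45 ± 0.17 without replicate 1, edgeR adjusted p = 0.576 and 0.0399). For both genes replicate 1 was above every BH-WT liver while replicate 3 was below every one. Cldn1 had 130, 49.4 and 39.0 CPM in BH-KO livers, against 30.6, 34.1 and 39.3 CPM in BH-WT livers. Its rise (log2 fold change 1.06 ± 0.35, edgeR adjusted p = 0.0371) rested on replicate 1: without it the log2 fold change was 0.35 ± 0.21 (adjusted p = 0.206). The call was also lost without any 1 of the 3 BH-WT livers (adjusted p 0.0644 to 0.105) and with a block for replicate number (adjusted p = 0.0599).

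Cldn14, Cdh1 and Tjp1 did not pass in the BH line with or without replicate 1 in the edgeR fit. Cldn14 had 7.28, 8.56 and 3.08 CPM in BH-KO livers, against 9.96, 10.1 and 11.8 CPM in BH-WT livers, and although these did not overlap, its log2 fold change of −0.76 ± 0.33 did not pass (edgeR adjusted p = 0.0934). Cdh1 had 91.9, 34.4 and 51.7 CPM in BH-KO livers, against 34.9, 30.9 and 27.3 CPM in BH-WT livers, a log2 fold change of 0.93 ± 0.35 (edgeR adjusted p = 0.0583). It passed in 3 of 13 alternatives, with upper-quartile scaling (adjusted p = 0.0359), with DESeq2 (0.0322) and without BH-KO replicate 2 (0.0248). Tjp1 had 45.9, 66.7 and 58.9 CPM in BH-KO livers, against 59.1, 57.7 and 56.3 CPM in BH-WT livers, a log2 fold change of −0.01 ± 0.12 with a 95% interval of −0.28 to 0.26. Of these 3 genes, Cdh1 had 2 of 3 BH-KO livers above every BH-WT liver.

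**Figure D3:**
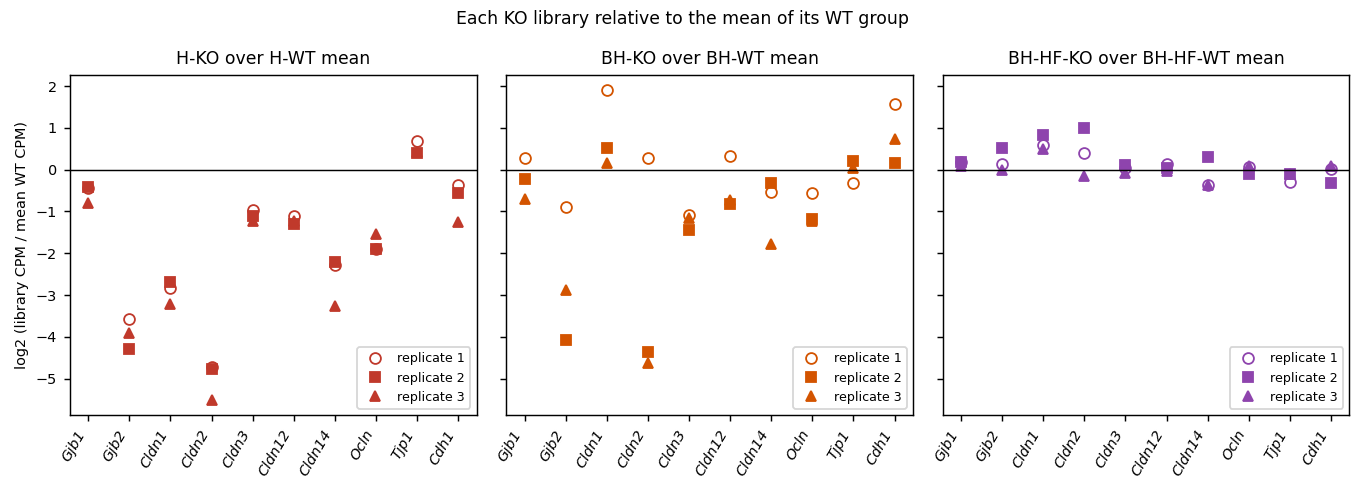
Log2 ratio of each H-KO, BH-KO and BH-HF-KO library to the mean of its WT group (y axis) for the 10 genes, 1 symbol per replicate. BH-KO replicate 1 lies at 0.27 for Cldn2 and −0.89 for Gjb2, while BH-KO replicates 2 and 3 lie at −4.37 and −4.62 for Cldn2 and at −4.07 and −2.88 for Gjb2.

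In the libraries labelled BH-HF-KO none of the 10 genes passed, and neither did any other gene (0% of 13958 called by edgeR, 490 at an unadjusted p under 0.05, and 0 called by DESeq2, with 448 at an unadjusted p under 0.05). Of the 10 genes none had an unadjusted p under 0.05, and the log2 fold changes ran from −0.16 for Tjp1 to 0.64 for Cldn1. Groups did not overlap for 2 genes, Gjb1 and Cldn1, both higher in BH-HF-KO livers, beside 10.4% of all genes in either direction and 5.67% higher. Gjb1 had 594, 592 and 558 CPM in BH-HF-KO livers, against 540, 529 and 510 CPM in BH-HF-WT livers. Cldn1 had 68.8, 81.7 and 63.9 CPM in BH-HF-KO livers, against 42.1, 48.8 and 46.1 CPM in BH-HF-WT livers, a log2 fold change of 0.64 ± 0.35 (edgeR unadjusted p = 0.0856). Its KO livers were clear of the WT livers, but the change was called in 0 of 12 alternatives. Hepatocyte markers summed to 53032 to 65372 CPM in BH-HF-KO livers and 94192 to 119404 CPM in BH-HF-WT livers. Of the 8 markers 0 were called, 3 had a positive and 5 a negative log2 fold change, and the median was −0.18. Albumin, 1 of the 8, made up 2.68% to 3.72% of all counts in BH-HF-KO livers and 6.18% to 7.71% in BH-HF-WT livers.

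Cldn2, Gjb2 and Cldn3, which had all fallen in H-KO livers, are set out next. Cldn2 had 105, 160 and 72.0 CPM in BH-HF-KO livers, against 64.8, 73.2 and 102 CPM in BH-HF-WT livers. Gjb2 had 450, 578 and 404 CPM in BH-HF-KO livers, against 438, 315 and 468 CPM in BH-HF-WT livers. Cldn3 had 58.0, 61.0 and 53.3 CPM in BH-HF-KO livers, against 60.9, 50.3 and 58.8 CPM in BH-HF-WT livers. The groups of all 3 genes overlapped. Their 95% intervals of the log2 fold change were −1.40 to 2.39 for Cldn2, −0.90 to 1.36 for Gjb2 and −0.23 to 0.27 for Cldn3, so that a fall of the size seen for these genes in H-KO livers lay outside each interval. The remaining genes ran alike: Cldn12 had 111, 104 and 98.9 CPM in BH-HF-KO livers and 105, 82.4 and 117 CPM in BH-HF-WT livers, and Ocln had 24.1, 21.3 and 24.4 CPM in BH-HF-KO livers and 21.9, 22.5 and 24.5 CPM in BH-HF-WT livers. Cldn14 had 9.15, 14.7 and 9.19 CPM in BH-HF-KO livers and 15.3, 10.4 and 10.0 CPM in BH-HF-WT livers. Tjp1 stood at 53.3, 60.8 and 60.8 CPM in BH-HF-KO livers and 64.3, 59.6 and 71.3 CPM in BH-HF-WT livers, and Cdh1 at 45.3, 35.5 and 47.2 CPM in BH-HF-KO livers and 56.8, 37.3 and 39.8 CPM in BH-HF-WT livers.

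An interaction in the same fit tested whether the KO effect differed between the BH and H lines, and between BH-HF and BH mice. The KO effect in the BH line minus that in the H line passed for Cldn1 and Cldn14, both upward, beside 6.06% of all genes in either direction and 3.76% upward. For Cldn1 the effects were 1.06 in the BH line and −2.89 in the H line, a difference of 3.95 ± 0.53 on the log2 scale (edgeR adjusted p = 0.00134). It held under all 19 alternatives and was 3.25 ± 0.30 without BH-KO replicate 1, where it passed as well. For Cldn14 the effects were −0.76 in the BH line and −2.51 in the H line, a difference of 1.75 ± 0.48 (edgeR adjusted p = 0.0411) that held under 5 of 19 alternatives, with adjusted p up to 0.105. It was lost without each of 11 of the 12 H and BH libraries left out in turn, that is without any of them but BH-KO replicate 3. The differences for Cldn2 (3.72 ± 1.36, edgeR adjusted p = 0.118), Gjb2 (1.86 ± 0.74, adjusted p = 0.146) and Cdh1 (1.60 ± 0.49, adjusted p = 0.0668) did not pass, and without BH-KO replicate 1 those for Cldn2 and Gjb2 were 0.47 and 0.54. With BH-KO replicate 2 left out the difference passed for 6 genes (Cldn1, Gjb2, Cldn2, Cldn12, Tjp1 and Cdh1), beside 7.21% of all genes.

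The KO effect in BH-HF mice minus that in BH mice passed for Cldn3 alone among the 10, beside 6.1% of all genes in either direction and 3.45% upward. The effects were 0.02 in BH-HF mice and −1.22 in BH mice, a difference of 1.24 ± 0.17 on the log2 scale (edgeR adjusted p = 0.00055). The difference held under all 19 alternatives. Without BH-KO replicate 1 this difference passed for 5 genes, beside 21.1% of all genes in that fit: Cldn2 (4.98), Gjb2 (3.59), Cldn3 (1.31), Ocln (1.22) and Cldn12 (0.82). Diet, age and the Arntl level of the libraries labelled KO all differ between BH-HF and BH mice and cannot be told apart.

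BH-KO and H-KO livers were also set side by side directly. Relative to H-KO livers, 6 genes were higher in BH-KO livers and 1 was lower, beside 16.4% of all genes, 10.1% higher and 6.3% lower, and the groups did not overlap for 5 genes above and 1 below, beside 36.2% of all genes, 18.8% above and 17.3% below. Cldn1 was higher by 3.61 ± 0.40 on the log2 scale (edgeR adjusted p = 8.08e-05), with 39.0 to 130 CPM in BH-KO livers and 4.78 to 6.81 CPM in H-KO livers. This call alone held under all 13 alternatives. Cldn14 (1.34 ± 0.36, adjusted p = 0.0187), Cldn12 (0.88 ± 0.23, adjusted p = 0.0183) and Tjp1 (−0.41 ± 0.12, edgeR adjusted p = 0.0318) followed. Cldn2 (4.06 ± 1.07), Gjb2 (1.86 ± 0.54) and Cdh1 (1.06 ± 0.35) passed with adjusted p of 0.0204, 0.0300 and 0.0493. Without BH-KO replicate 1 only Cldn1 (2.90) and Cldn14 (1.24) passed, beside 14.3% of all genes in that fit. The count was 3 without H-KO replicate 1, 2 without replicate 2 and 1 without replicate 3, beside 9.82%, 8.31% and 8.88% of all genes.

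Between WT livers of the young lines no difference in these genes was detectable. BH-WT against H-WT called none of the 10, beside 0.165% of all genes, and none had an unadjusted p under 0.05. The largest gap was that of Cdh1, with a log2 fold change of −0.54 (27.3 to 34.9 CPM in BH-WT livers and 27.7 to 62.5 CPM in H-WT livers), and groups did not overlap only for Cldn14, lower in BH-WT livers, beside 14.7% of all genes in either direction and 7.09% lower. BH-HF-WT against BH-WT, where age and diet change together, also called none of the 10, beside 7% of all genes, with 0 of the 10 at an unadjusted p under 0.05. Groups did not overlap for Cldn1, Tjp1 and Cdh1, higher in BH-HF-WT livers, and for Gjb2, lower in BH-HF-WT livers, beside 31% of all genes, 15.7% higher and 15.3% lower. The largest of these log2 fold changes was 0.52 for Cdh1 (edgeR unadjusted p = 0.153).

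The rest of the junction families was read from lists of other genes. Of 21 other connexins and pannexins in the table only 4 had enough reads to test, and 2 of them rose in H-KO livers. Panx1, a large-pore channel of the plasma membrane, averaged 7.60 ± 0.24 CPM in H-KO livers and 1.45 ± 1.18 CPM in H-WT livers (SD, n = 3 each; log2 fold change 2.38, edgeR adjusted p = 0.0046). Gjc3, a connexin known from glia, averaged 3.46 ± 0.15 CPM in H-KO livers and 0.981 ± 0.33 CPM in H-WT livers (log2 fold change 1.81, edgeR adjusted p = 0.000946). In BH-KO livers Panx1 rose (log2 fold change 1.72, edgeR adjusted p = 0.04), a call lost without any 1 of 4 libraries, and Gja4, an endothelial connexin, fell (1.55 ± 0.46 CPM in BH-KO livers and 3.02 ± 1.10 CPM in BH-WT livers, edgeR adjusted p = 0.0472), a call lost in 9 of 13 alternatives. Gja1, the widespread Cx43, had 5.63 ± 0.96 CPM in H-KO livers and 4.76 ± 1.57 CPM in H-WT livers. Of 21 other claudin family genes 3 were testable; none passed in H-KO livers, and 1 rose in BH-KO livers, the claudin domain gene Cldnd1 (31.4 ± 1.93 CPM in BH-KO livers and 23.5 ± 4.15 CPM in BH-WT livers), a call lost in 5 of 13 alternatives, among them those without BH-KO replicate 3 and without BH-WT replicate 2 or 3.

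Other tight junction genes moved in both directions. Of 30 tested, 7 rose and 13 fell in H-KO livers (median log2 fold change −0.35), and 6 rose and 8 fell in BH-KO livers (median −0.19). List counts were also recomputed with libraries left out, a choice made after seeing the data: the BH-KO falls numbered 10 without BH-KO replicate 1, 3 without replicate 2 and 4 without replicate 3, where 3 rose. Mpdz, a scaffold with many PDZ domains, averaged 3.59 ± 1.06 CPM in H-KO livers and 35.5 ± 4.79 CPM in H-WT livers (log2 fold change −3.30, edgeR adjusted p = 0.00163). In BH-KO livers it averaged 9.45 ± 11.7 CPM, against 38.7 ± 7.80 CPM in BH-WT livers (log2 fold change −2.13, edgeR adjusted p = 0.0191). The log2 fold change ran from −3.83 to −1.58 over 13 alternatives. Among others, the call was lost with BH-KO replicate 2 left out, and with BH-WT replicate 1 left out. Prkcz, a polarity kinase, fell alike in both lines, to 5.00 ± 0.68 CPM in H-KO livers, against 19.8 ± 3.92 CPM in H-WT livers, and to 5.06 ± 2.12 CPM in BH-KO livers, against 20.03 ± 1.98 CPM in BH-WT livers (edgeR adjusted p = 0.000115 and 0.000148). Amot, an actin-binding partner of tight junction scaffolds, rose in H-KO livers (25.4 ± 3.22 CPM in H-KO livers and 9.02 ± 1.07 CPM in H-WT livers, edgeR adjusted p = 6.77e-05). Magi2, a scaffold, also rose there, with 65 counts summed over H-KO livers and 1 over H-WT livers, too few for a usable fold. The Y-box protein gene Ybx3 rose in BH-KO livers (45.7 ± 14.6 CPM in BH-KO livers and 21.3 ± 2.20 CPM in BH-WT livers, log2 fold change 1.10, edgeR adjusted p = 0.0137).

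Of 19 other adherens junction genes tested, 1 rose and 6 fell in H-KO livers, and the same counts were found in BH-KO livers (1 and 9 without BH-KO replicate 1, and 3 falls with either BH-KO replicate 2 or BH-WT replicate 3 left out). In H-KO livers 2 rose without H-WT replicate 1 or 3, and 3 with upper-quartile scaling. In H-KO livers the adhesion genes Nectin2 (14.03 ± 1.62 CPM in H-KO livers and 39.3 ± 4.62 CPM in H-WT livers) and Nectin1 (22.8 ± 3.24 CPM in H-KO livers and 52.1 ± 9.04 CPM in H-WT livers) fell, and the actin crosslinker gene Actn1 rose (92.5 ± 2.49 CPM in H-KO livers and 44.3 ± 4.56 CPM in H-WT livers, edgeR adjusted p = 8.11e-05). In BH-KO livers Ptprm, a receptor phosphatase, fell on low counts (log2 fold change −1.94, lost in 6 of 13 alternatives), and Ssx2ip rose (log2 fold change 0.65). Of 10 desmosome genes tested, 1 rose and 4 fell in H-KO livers and 5 fell in BH-KO livers (6 without BH-KO replicate 1). Perp, a desmosomal membrane protein, led the falls in both among genes at 2 CPM or more. Without H-WT replicate 1 only 2 fell in H-KO livers, and with replicate 2 of either H group left out none rose. Perp averaged 5.39 ± 1.19 CPM in H-KO livers and 145 ± 25.1 CPM in H-WT livers (log2 fold change −4.74, edgeR adjusted p = 9.56e-05). It averaged 30.3 ± 31.98 CPM in BH-KO livers and 147 ± 18.8 CPM in BH-WT livers (log2 fold change −2.31, −3.62 to −1.85 over 13 alternatives, edgeR adjusted p = 0.00646). Next came the plakophilin gene Pkp2 in H-KO livers (−1.03) and the desmocollin gene Dsc2 in BH-KO livers (−1.49).

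The pole of the hepatocyte that the tight junctions border, the bile canaliculus, was covered by 17 tested genes, of which 3 rose and 5 fell in H-KO livers and 4 rose and 4 fell in BH-KO livers (4 and 9 without BH-KO replicate 1). In BH-KO livers 2 fell without BH-KO replicate 2 or 3, without BH-WT replicate 1 or with upper-quartile scaling. Slc9a3r1, a scaffold of apical transporters, fell in both lines, to 67.4 ± 5.16 CPM in H-KO livers, against 235 ± 20.8 CPM in H-WT livers. In BH-KO livers it fell to 73.6 ± 41.1 CPM, against 237 ± 17.02 CPM in BH-WT livers (log2 fold change −1.69, −2.23 to −1.40 over 13 alternatives). Ceacam1, an apical adhesion protein, fell in H-KO livers (log2 fold change −2.11, edgeR adjusted p = 0.00969, not called by DESeq2). Abcg5, a sterol exporter, fell in BH-KO livers (−0.56, edgeR adjusted p = 0.0184), a call lost in 3 of 13 alternatives. The apical aminopeptidase gene Anpep rose in both, with 625 ± 33.1 CPM in H-KO livers and 150 ± 21.3 CPM in H-WT livers, and 420 ± 191 CPM in BH-KO livers and 172 ± 40.1 CPM in BH-WT livers. Abcb1a, a drug exporter, rose in H-KO livers (log2 fold change 1.70, edgeR adjusted p = 0.0114). Abcb11, the bile salt export pump, rose in both H-KO livers (log2 fold change 0.80, edgeR adjusted p = 0.018) and BH-KO livers (log2 fold change 0.88, adjusted p = 0.0141), and each of these calls was lost in 3 of 13 alternatives. In BH-HF-KO livers no gene of any of these lists passed. Whether any list moved more than other genes was not tested, and its counts stand beside the background shares given above.

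**Figure D4:**
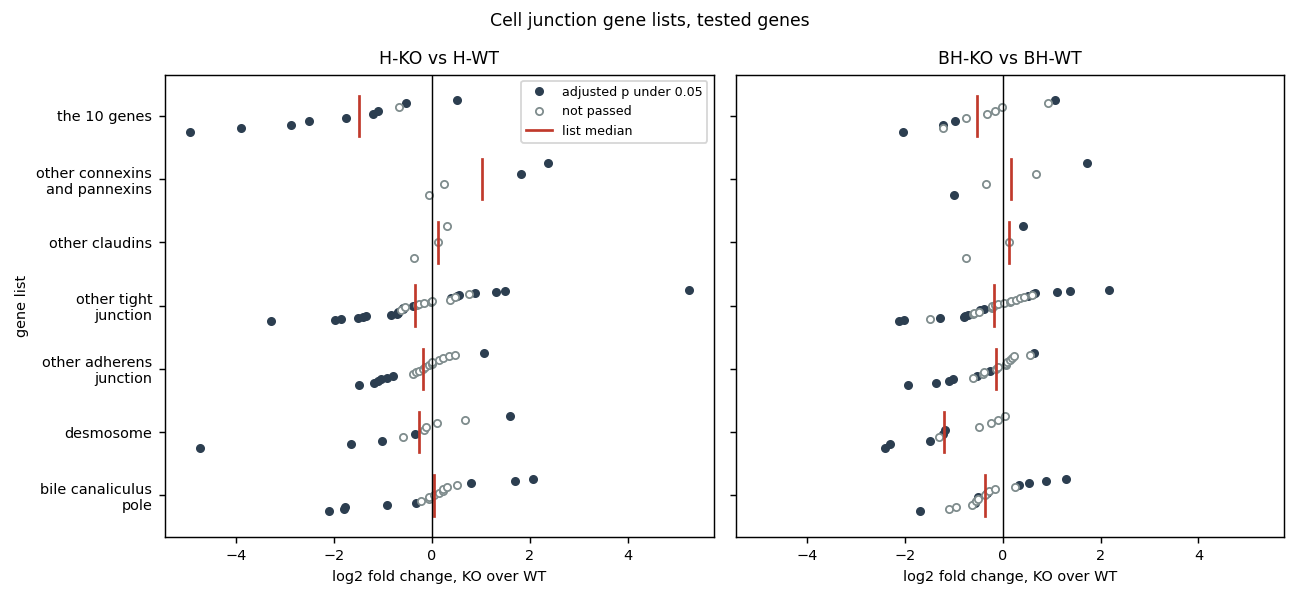
Log2 fold change (x axis) of every tested gene of the junction lists (rows) in H-KO against H-WT livers (left) and BH-KO against BH-WT livers (right); filled points passed an adjusted p under 0.05 and red bars are list medians. The 10 genes have a median of −1.49 in the H line and −0.54 in the BH line (−0.82 without BH-KO replicate 1, not drawn). The tight junction point near 5 in the H line is Magi2, with 1 count in H-WT livers.

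Across the 18 libraries the 10 genes did not share 1 pattern. Gjb2 and Cldn2 ran closest together (Pearson r of log2 CPM 0.962, 18 libraries), and Tjp1 ran against each of the other 9 (r −0.72 to −0.32). These points share the group structure, the outlying BH-KO library and the scaling, so r is only a description. Over all tested genes, the one nearest to Gjb2 in pattern was Mettl7b (r = 0.990), that nearest to Cldn2 was F10 (0.988), that nearest to Cldn12 was Hsd3b2 (0.987), and that nearest to Cldn1 was Ddc (0.979), each over 18 libraries.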

How the data were processed

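Total RNA of 18 livers was sequenced, and a table of raw gene counts, 1 column per liver, was deposited by the authors. Reads were aligned with STAR 2.6 to mm10, per the submitters' processing notes; the counting program, its strand setting and read filters are unknown, being not given in the sources used here. Groups came from the sample titles. Counts were filtered with filterByExpr (minimum count 10), scaled by TMM (factors 0.830 to 1.38) and fitted with edgeR 4.0.16 (R 4.3.3) in 1 quasi-likelihood model with a mean for each of 6 groups, leaving 12 residual degrees of freedom. Tests were two-sided, p-values were adjusted by Benjamini-Hochberg over 13958 genes in each of 8 comparisons, and SEs were derived from the F statistic. The 38678 other gene IDs, 22756 of them without a count, were not tested. A floor of 3 counts equals 0.264 to 0.480 CPM per library and covers counting error only. The design text calls the 3 livers of a group biological replicates. Exon lengths and gene coordinates came from GENCODE M21, and promoter sequences from RefSeq. The alternatives were DESeq2 1.42.0, other scalings, no filter, a replicate block, the compared groups alone and leaving out each library. Genes of other lists were named where called at 2 CPM or more in 1 group, at most 2 rises and 2 falls per list and comparison. The fit was tested on simulated counts with known changes in H-KO against H-WT. It recovered 61% of changes of 1 on the log2 scale and 92% of changes of 2, with 5 false calls. The 10 genes, the lists and the tests were chosen with earlier results of these data known. Some genes that this rule would name are not reported here.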

Additional observations from a re-analysis of the deposited data

Results flagged for a closer look

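The effect of the KO differed for 3 genes by the interaction test in the edgeR fit, between the BH and H lines or between BH-HF and BH mice. For Cldn1 the KO effect in the BH line exceeded that in the H line by 3.95 on the log2 scale (adjusted p = 0.00134), with effects of 1.06 in the BH line and −2.89 in the H line. For Cldn14 the KO effect in the BH line exceeded that in the H line by 1.75 (adjusted p = 0.0411). For Cldn3 the KO effect in BH-HF mice exceeded that in BH mice, which have the same alleles, by 1.24 (adjusted p = 0.00055). Groups of 3 livers are too small for a test of single outlying samples, so BH-KO replicate 1, at 149 CPM of Cldn2 beside 5.99 and 5.02 CPM in the other BH-KO livers, was not tested as one.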

How the results depend on the processing

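In H-KO against H-WT, 123 of 130 recomputed values kept direction and side of the threshold, and the 7 others were calls lost, 6 without 1 library and 1 by scaling. Upper-quartile scaling moved the median of all genes by 0.15 in H-KO, 0.11 in BH-KO and −0.11 in the BH-HF minus BH difference; 3338 of 5401 calls were then higher in H-KO, against 2209 of 4871 as reported, and 1076 of 2203 in BH-KO against H-KO, where 1412 of 2292 were as reported. In the BH-HF minus BH difference 430 of 979 calls were then higher, where 481 of 851 were as reported. All-gene calls in BH-KO against BH-WT were 1096 with the compared groups alone, and 3990 as reported.

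Members called became 1 in BH-KO against BH-WT, in the BH minus H difference and in BH-KO against H-KO with the compared groups alone, 1 in the BH minus H difference and 3 in BH-KO against H-KO without a filter, and 4 (BH minus H) and 2 (BH-HF minus BH) with DESeq2. Leaving out 1 library gave 2 to 6 members in BH-KO against BH-WT, 1 to 6 in BH minus H, 1 to 5 in BH-HF minus BH and 1 to 6 in BH-KO against H-KO. The cause of these shifts was not tested, beyond the fewer samples of each fit. Shares of all genes called are not set beside these counts here. A shift in these genes therefore cannot be told from one over the whole table.

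The reversals were all of uncalled values. Upper-quartile scaling gave Tjp1 0.078 in BH-KO and Gjb2 −0.0013 in BH-WT against H-WT. No filter gave −0.0067 for Cldn3 and −0.0043 for Ocln in BH-HF-KO, and −0.0091 for Gjb2 in BH-WT against H-WT, and the compared groups alone gave Gjb2 −0.0054 there. Leaving out 1 library gave, in BH-KO, Gjb1 −0.45 to 0.052 and Tjp1 −0.13 to 0.12, and in BH-HF-KO, Cldn3 −0.060 to 0.075, Cldn12 −0.081 to 0.16, Cldn14 −0.37 to 0.11, Ocln −0.016 to 0.078 and Cdh1 −0.18 to 0.15. It gave Cldn1 −0.72 to 0.30 in BH-HF minus BH and Cldn3 −0.18 to 0.0024 in BH-KO against H-KO. In BH-WT against H-WT it gave Gjb2 −0.064 to 0.087, Cldn3 −0.080 to 0.075, Cldn12 −0.082 to 0.10 and Ocln −0.43 to 0.18, and in BH-HF-WT against BH-WT, Cldn14 −0.055 to 0.27 and Ocln −0.029 to 0.43.

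Same-numbered libraries of compared groups correlated at −0.25 to 0.13 in their deviations, so they share only a number. With the replicate block, 9 members were called in H-KO, 3 in BH-KO, 0 in BH-HF-KO and 6 in BH-KO against H-KO. The shares of all genes in this fit are not given here. The calls lost were Cldn1 in BH-KO (edgeR adjusted p = 0.0599) and Cdh1 in BH-KO against H-KO (edgeR adjusted p = 0.0637). At this depth Cldn2 and Cldn14 in H-KO livers rest on 92 and 72 counts.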
